A study of Mus musculus with 6 samples.

Results

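Cytochrome P450 enzymes of families 1 to 4 were described in the inguinal fat pad, which lies under the skin, of mice with the cysteine dioxygenase gene Cdo1 intact or deleted in fat. The genes were every protein-coding row of the deposited table whose symbol is Cyp, a family number from 1 to 4, a single subfamily letter and a number, which gave 75 of 54532 genes. By family these were 3 genes of family 1, 48 of family 2, 7 of family 3 and 17 of family 4. Symbols with a further letter, such as Cyp4a12a, and those with 2 subfamily letters, such as Cyp2ab1, fell outside this rule. Cyp2e1 and Cyp2f2 were singled out with their values in these samples already known, so their position at the low end is a description.

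The Cdo1AKO group held 3 samples from mice with a knockout of Cdo1 in fat, and the control group held 3 samples from Cdo1flox/flox mice, whose genotype field reads WT. All mice started a high fat diet at 8 weeks of age and stayed on it for 15 weeks. The promoter that drives the recombinase, the sex of the mice and the exons removed are not given in the sources used here. The labels do not say whether the samples of a group are separate animals, so each p-value speaks only to the spread among these 6 samples, which may be technical.

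P450 enzymes are haem proteins, most of them anchored in the endoplasmic reticulum, that insert an oxygen atom into their substrate with electrons passed on by P450 oxidoreductase. Families 1 to 3 hold most of the enzymes that oxidise drugs, solvents and other foreign compounds, and are best known from liver. Several enzymes of families 2 and 4 also oxidise the body's own fatty acids, for example to epoxides or to omega-hydroxy acids. Adipose tissue is less well known for these enzymes than liver.

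Libraries held 16275184 to 19205804 counts. Cdo1, which encodes the enzyme that oxidises cysteine on the way to taurine, had 123.3, 391.6 and 134 CPM in Cdo1AKO 1 to 3, against 887, 432 and 631 CPM in control 1 to 3. CPM is the usual measure of counts scaled to library size, here with TMM scaling. The Cdo1AKO values all lay below the control values, with Cdo1AKO 2 close to control 2, and the log2 fold change of -1.59 ± 0.53 (SE) had adjusted p = 0.416 by edgeR. All 12 adipocyte markers had a mean of at least 1 CPM, and their summed level was 25070, 55590 and 26810 CPM in Cdo1AKO 1 to 3, against 66500, 41990 and 51130 CPM in control 1 to 3. Transcripts of lymph node and B cells were present in 4 libraries and nearly absent in Cdo1AKO 2 and control 1. The median of 11 such markers was 51.6, 0.450 and 54.6 CPM in Cdo1AKO 1 to 3, against 0.0614, 98.6 and 53.1 CPM in control 1 to 3. Cdo1AKO 1 and 3 were also unusually alike, with a chi-square of 5.65 per gene between their counts, against 25.6 to 89.7 for pairs of controls and 231 to 243 for pairs with Cdo1AKO 2.

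Of the 75 P450 genes, 29 had no count in any library, 28 had some counts but a mean below 1 CPM over the 6 libraries, and 18 had a mean of at least 1 CPM. A count of 0 allows up to 3 counts, or 0.15 to 0.193 CPM depending on the library, and covers counting error only. The 18 genes at or above 1 CPM were 1 of family 1, 9 of family 2, 0 of family 3 and 8 of family 4. Most genes of the large liver subfamilies were silent or nearly so. In Cyp2c 1 of 15 genes reached 1 CPM, in Cyp2d 1 of 8, in Cyp2a 0 of 4, in Cyp2b 0 of 5 and in Cyp3a 0 of 7. The Cyp3a genes, whose products oxidise many drugs in liver, summed to a mean of 0.201 CPM. Cyp1a2, a liver enzyme that oxidises caffeine, had no counts, and Cyp1a1, which the aryl hydrocarbon receptor induces, had at most 7 counts in a library. In Cyp4f, by contrast, all 9 genes had counts and 5 reached 1 CPM. The highest mean below the limit was 0.715 CPM, for Cyp2t4.

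Per kilobase of the listed gene length, Cyp2e1 stood far above the rest of these families, with 649 CPM per kilobase on average over the 6 libraries. That placed it 46th among 13249 protein-coding genes with a mean of at least 1 CPM, and 215th in Cdo1AKO samples, against 26th in control samples. Cyp4b1 came next with 63.7 CPM per kilobase. Cyp4v3 and Cyp2d22 followed at 29.6 CPM per kilobase each. Cyp4f17, Cyp4f13 and Cyp2f2 averaged 11.6, 11.2 and 11.0 CPM per kilobase, but the Cyp2f2 average hides a split, with 1.19 CPM per kilobase in Cdo1AKO samples, against 20.7 in controls. Cyp4f18, Cyp1b1, Cyp4f16 and Cyp2j6 lay between 6.18 and 8.29 CPM per kilobase. Neighbours in this order within these 4 differed by less than their spread over libraries, as did Cyp4v3 and Cyp2d22. Cyp2j9 and Cyp2u1 had 2.64 and 1.63 CPM per kilobase, and the last 5 (Cyp4f39, Cyp4a32, Cyp2s1, Cyp2r1 and Cyp2c23) had 0.541 to 0.896.

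**Figure D1:**
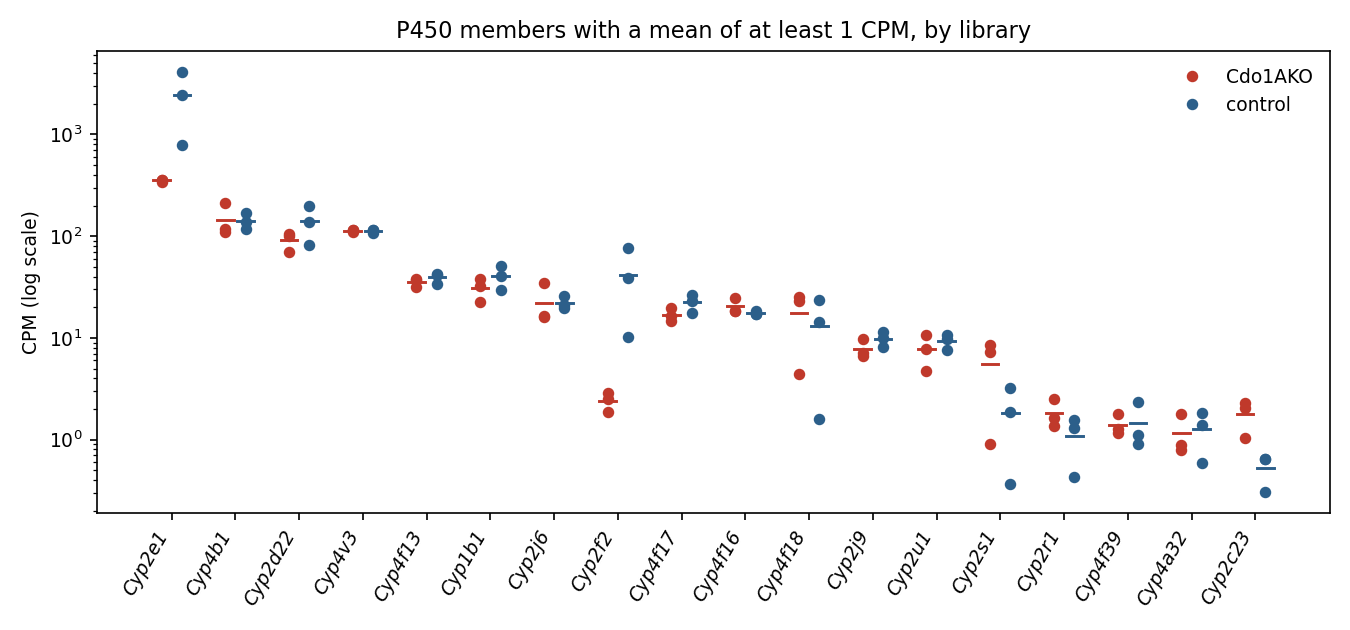
Level of the 18 P450 genes with a mean of at least 1 CPM, in CPM on a log scale, with 1 point per library and a short line at the group mean, Cdo1AKO left of control. Cyp2e1 and Cyp2f2 stand lower in all 3 Cdo1AKO libraries than in any control library, and most other genes overlap between the groups.

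Cyp2e1 and Cyp2f2 had the largest log2 fold changes among the 18 P450 genes with a mean of at least 1 CPM, and both were lower in Cdo1AKO. Cyp2e1 (ENSMUSG00000025479) encodes an enzyme that oxidises ethanol, acetone and other small molecules. It had 355.5, 360.5 and 344.5 CPM in Cdo1AKO 1 to 3, against 4138, 782 and 2422 CPM in control 1 to 3. The Cdo1AKO libraries were thus nearly equal, with a coefficient of variation of 2.31%, while the controls spanned 5.29-fold from control 2 to control 1 with a coefficient of variation of 68.6%. The groups did not overlap, and the lowest control was 2.17-fold above the highest Cdo1AKO library. The mean was 354 ± 8.17 CPM in Cdo1AKO and 2447 ± 1678 CPM in controls (SD, n = 3 each), a log2 fold change of -2.79 ± 0.60 (SE).

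Cyp2f2 (ENSMUSG00000052974), known in mouse for activating naphthalene in the club cells of the airway, had 2.50, 1.87 and 2.85 CPM in Cdo1AKO 1 to 3, against 77.1, 10.1 and 38.8 CPM in control 1 to 3. In counts these were 50, 29 and 52 in Cdo1AKO, against 1257, 189 and 723 in controls. Again the Cdo1AKO libraries lay close together and the controls spanned 7.63-fold. Control 1 was highest and control 2 lowest, the same order of controls as for Cyp2e1. That order is not particular to these genes, since the summed adipocyte markers and Cdo1 ranked the controls likewise. The median lymph node and B cell marker ranked them in reverse. The mean was 2.41 ± 0.501 CPM in Cdo1AKO and 42.0 ± 33.6 CPM in controls (SD, n = 3 each), a log2 fold change of -4.12 ± 0.75 (SE). Among 13234 tested protein-coding genes with a mean of at least 1 CPM, this was the second lowest log2 fold change, at rank 2, and that of Cyp2e1 was at rank 4. The level of Cyp2e1 was 142, 193 and 121 times that of Cyp2f2 in CPM in Cdo1AKO 1 to 3, against 53.7, 77.3 and 62.5 times in control 1 to 3, so the ratio was higher in every Cdo1AKO library.

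Neither gene passed edgeR's quasi-likelihood test with genotype as the only term. The adjusted p was 0.31 for Cyp2e1 (unadjusted p = 0.00309) and 0.267 for Cyp2f2 (unadjusted p = 0.00132), with Benjamini-Hochberg adjustment over 16623 genes and a threshold of 0.05. Of the 20 P450 genes tested, 0 passed, as did 0% of all tested genes. At an unadjusted p under 0.05 there were 2 lower P450 genes, Cyp2e1 and Cyp2f2, and 1 higher, Cyp2c23, against 5.71% of all tested genes lower and 4.66% higher. DESeq2 called both Cyp2e1 (adjusted p = 8.77e-05) and Cyp2f2 (adjusted p = 2.48e-07) lower, in a test that called 0.968% of genes lower, and no other P450 gene. The authors' deposited table likewise holds adjusted p = 8.32e-05 for Cyp2e1 and 2.35e-07 for Cyp2f2 and calls none of the other 16 genes with a mean of at least 1 CPM, where 0.655% of its genes are called lower.

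With a term for the libraries that hold lymph node transcripts, both passed the edgeR test as lower. In that fit the only Cdo1AKO libraries of the same class are Cdo1AKO 1 and 3, which were unusually alike. The log2 fold change was -2.63 ± 0.49 for Cyp2e1 (adjusted p = 0.0387) and -3.87 ± 0.64 for Cyp2f2 (adjusted p = 0.0334), where 1.87% of all tested genes were called lower. Over all alternatives the adjusted p ranged from 8.77e-05 to 0.938 for Cyp2e1 and from 2.48e-07 to 0.938 for Cyp2f2. Between the 2 libraries without lymph node transcripts, Cyp2e1 was 11.5-fold and Cyp2f2 41.3-fold lower in Cdo1AKO 2 than in control 1. Between the means of the 4 libraries with these transcripts, Cyp2e1 was 4.58-fold and Cyp2f2 9.13-fold lower in Cdo1AKO. Control 1 carries part of the size, since without it the log2 fold changes were -2.19 for Cyp2e1 and -3.35 for Cyp2f2.

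**Figure D2:**
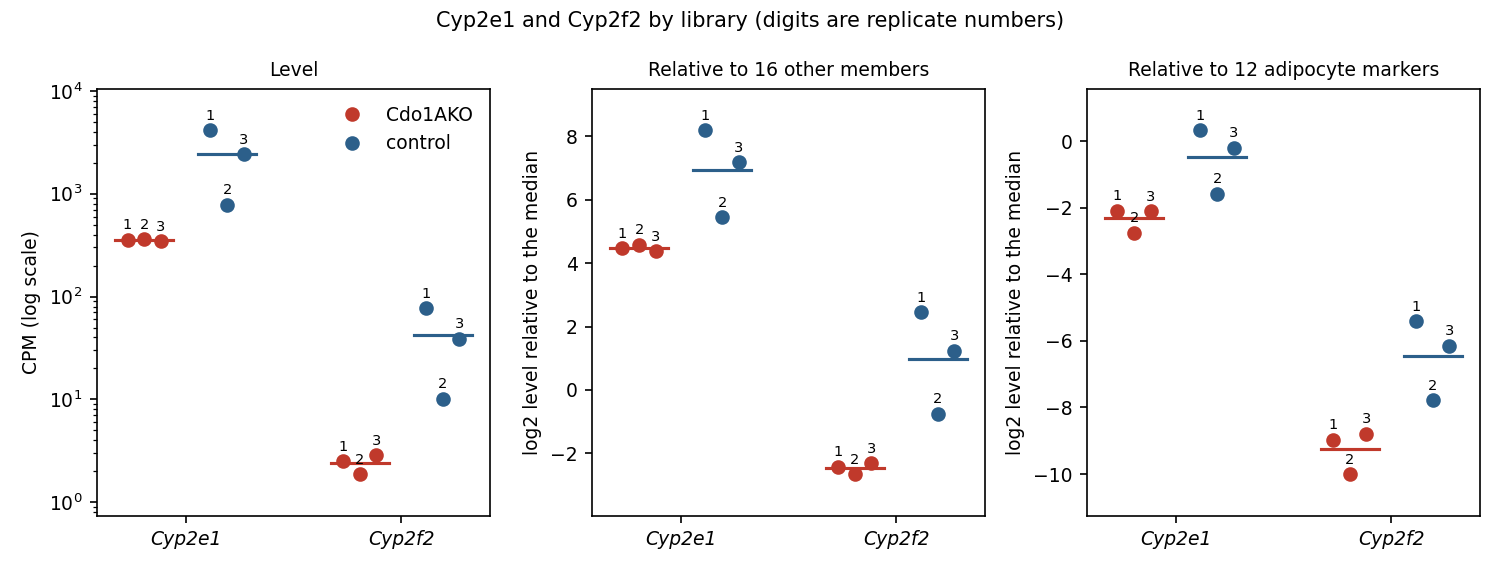
Cyp2e1 and Cyp2f2 in each library, with the replicate number at each point and a line at the group mean. From left to right the panels give the level in CPM on a log scale, the log2 level relative to the median of 16 other P450 genes, and the log2 level relative to the median of 12 adipocyte markers. In all 3 panels every Cdo1AKO library lies below every control library for both genes.

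The median level of the rest of the families overlapped between the groups. On a log2(CPM + 0.5) scale the median of the 16 other P450 genes with a mean of at least 1 CPM was 4.004, 3.91 and 4.06 in Cdo1AKO 1 to 3, against 3.82, 4.16 and 4.06 in control 1 to 3. These values overlap, with a difference of -0.02 and p = 0.80 in an exact two-sided permutation test over the 6 samples. Relative to that median, Cyp2e1 stood at 4.47, 4.59 and 4.37 in Cdo1AKO 1 to 3, against 8.19, 5.45 and 7.18 in control 1 to 3, a difference of -2.46 on the log2 scale. Cyp2f2 stood at -2.42, -2.67 and -2.31 in Cdo1AKO 1 to 3, against 2.46, -0.75 and 1.23 in control 1 to 3, a difference of -3.45. Each of these 2 differences had exact permutation p = 0.1, two-sided, which is the smallest that 3 against 3 samples can give and cannot reach 0.05.

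Adipocyte markers also tended lower in Cdo1AKO, with a negative log2 fold change for 11 of 12 and a median of -0.45, and 0 of 12 passing the edgeR test. Relative to the median of these markers, Cyp2e1 stood at -2.08, -2.75 and -2.10 on the log2 scale in Cdo1AKO 1 to 3, against 0.33, -1.58 and -0.19 in control 1 to 3. Cyp2f2 stood at -8.97, -10.01 and -8.78 in Cdo1AKO 1 to 3, against -5.41, -7.78 and -6.14 in control 1 to 3. The differences were -1.83 and -2.81, again with no overlap and with exact permutation p = 0.1 for each. In bulk tissue, fewer cells of a type and less RNA per cell cannot be told apart. Both genes are best known from liver and airway, so markers of those tissues were read in the same libraries. Of 6 hepatocyte markers only Alb reached 1 CPM, with 14.1 to 16.1 CPM in Cdo1AKO, against 25.6 to 49.5 CPM in controls, while Apoa1 had at most 0.375 CPM and Fgb was at 0. Of 4 airway markers 3 were at 0 in every library and Scgb1a1 had 0.129 CPM in Cdo1AKO 2 alone.

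The start regions of both genes are shown with that of Cyp2s1, a P450 gene that lay on the higher side, because these 3 genes, all on chromosome 7, are those that passed the edgeR test with the lymph node term, in opposite directions. Each sequence is 250 bases before to 50 bases after the start of a transcript on the gene's own strand, from RefSeq on GRCm38.p6, the assembly that mm10 represents, at chr7:140763569-140763868 (plus strand) for Cyp2e1, chr7:27119705-27120004 (plus strand) for Cyp2f2 and chr7:25816476-25816775 (minus strand) for Cyp2s1. Capitals mark a match to a searched motif.
Cyp2e1: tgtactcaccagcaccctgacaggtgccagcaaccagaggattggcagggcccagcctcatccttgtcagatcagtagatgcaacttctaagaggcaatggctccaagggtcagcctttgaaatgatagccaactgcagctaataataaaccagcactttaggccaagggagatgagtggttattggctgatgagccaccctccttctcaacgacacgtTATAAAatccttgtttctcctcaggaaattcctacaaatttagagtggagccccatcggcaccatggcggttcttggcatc
Cyp2f2: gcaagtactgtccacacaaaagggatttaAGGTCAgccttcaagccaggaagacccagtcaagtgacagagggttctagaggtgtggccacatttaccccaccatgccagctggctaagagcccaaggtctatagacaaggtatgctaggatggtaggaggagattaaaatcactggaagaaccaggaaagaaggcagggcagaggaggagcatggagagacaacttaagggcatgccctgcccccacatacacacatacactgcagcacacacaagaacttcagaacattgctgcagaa
Cyp2s1: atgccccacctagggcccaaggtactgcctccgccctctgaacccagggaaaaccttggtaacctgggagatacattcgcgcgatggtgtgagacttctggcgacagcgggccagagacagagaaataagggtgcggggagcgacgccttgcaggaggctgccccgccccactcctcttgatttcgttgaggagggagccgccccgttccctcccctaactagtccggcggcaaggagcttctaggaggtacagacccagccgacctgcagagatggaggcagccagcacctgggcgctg

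The Cyp2e1 window held the TATA box letters TATAAA, starting 31 bases before the start, which 13.6% of 32851 RefSeq promoter windows hold on either strand. The Cyp2f2 window held the nuclear receptor core AGGTCA, starting 221 bases before the start, which 16.3% of all windows hold. The Cyp2s1 window held none of the searched motifs. Cyp2f2 had 0 CG dinucleotides in its window and Cyp2e1 had 4, against 17 in Cyp2s1 and a median of 7 over all windows. Promoter windows were found for 14 of the 18 genes. Among these 14, the xenobiotic response core GCGTG was in 6 (32.4% of all windows), the E-box CACGTG in 2 (7.15%) and the HNF1 core GTTAAT in 1 (7.1%). The D-box letters TTACGTAA (0.119%) and TTATGTAA (0.938%) were in 0 of the 14, with both strands searched for every motif.

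Cyp2f2 (mm10 chr7:27119909-27133660, plus strand) lies in a cluster of 13 of the 75 genes that spans 1356 kb, while Cyp2e1 (mm10 chr7:140763739-140774987, plus strand) lies alone on the same chromosome. Of the 13, only Cyp2f2 and Cyp2s1 reached a mean of 1 CPM, and 5 had no count in any library. The neighbour Cyp2t4, which starts 33.8 kb beyond the start of Cyp2f2, had 0.598 ± 0.219 CPM in Cdo1AKO and 0.832 ± 0.319 CPM in controls (SD, n = 3 each). Its other neighbour Cyp2a12 had 5 counts over all 6 libraries. The low level in Cdo1AKO was thus seen at Cyp2f2 and could not be read at most of its neighbours. An antisense gene, Gm15883, overlaps Cyp2f2 and had 32 counts over all libraries, against 2300 for Cyp2f2. Of the 50-base words of Cyp2f2 transcripts, 9.0% also occur in Gm15883. The sources used here do not give a strand setting, and without it reads from those words could belong to either gene.

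**Figure D3:**
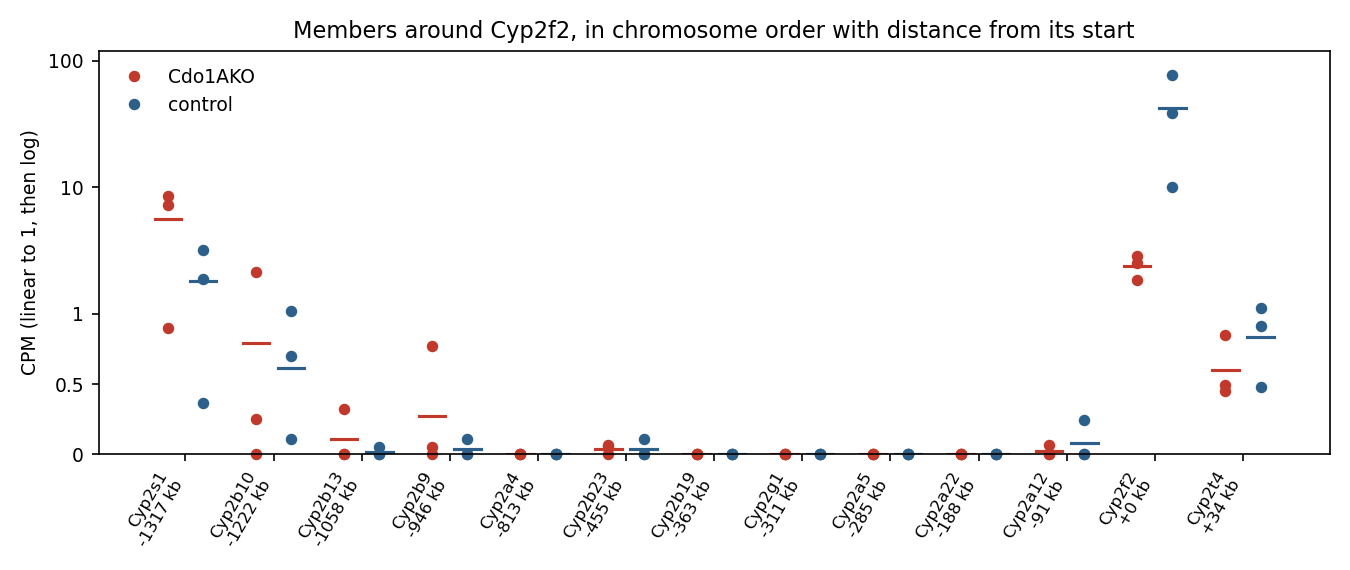
The 13 P450 genes around Cyp2f2 in chromosome order, with the distance of each from the start of Cyp2f2 in kb, and CPM on an axis that is linear to 1 and logarithmic above. Points are libraries and short lines group means, Cdo1AKO left of control; Cyp2f2 and Cyp2s1 are the genes whose means exceed 1 CPM.

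The fatty acid oxidising enzymes of family 4 mostly overlapped between the groups. Cyp4b1, an enzyme of lung and kidney that also hydroxylates fatty acids, had 117, 210.4 and 110.1 CPM in Cdo1AKO 1 to 3, against 169.5, 117 and 138 CPM in control 1 to 3. Its groups overlap, and its log2 fold change of 0.04 ± 0.30 (SE) turned to -0.32 without Cdo1AKO 2. Cyp4v3, whose human counterpart CYP4V2 hydroxylates fatty acids in the eye, had 114.5, 114 and 109 CPM in Cdo1AKO 1 to 3, against 116, 107 and 116 CPM in control 1 to 3. It had the smallest standard error of the 18, with a log2 fold change of -0.01 ± 0.12 (SE) that was 0.07 with library totals alone.

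Some Cyp4f enzymes end the action of leukotrienes and related lipids by hydroxylation. Cyp4f13 had 32.0 to 37.5 CPM in Cdo1AKO, against 33.9 to 42.6 CPM in controls, and Cyp4f17 had 14.6 to 19.7 CPM, against 17.4 to 26.4 CPM. Cyp4f16 had 18.6, 24.6 and 18.5 CPM in Cdo1AKO 1 to 3, against 17.3, 17.3 and 18.3 CPM in control 1 to 3, and did not overlap, though its log2 fold change was only 0.22 ± 0.17 (SE, unadjusted p = 0.243 by edgeR). Of its transcripts' 50-base words, 16.3% also occur in Cyp4f37, so reads from those words could belong to either gene. Cyp4f37 had 9 counts over all libraries, against 2040 for Cyp4f16. Cyp4f39, whose human counterpart CYP4F22 serves the skin barrier, had 1.16 to 1.80 CPM in Cdo1AKO, against 0.909 to 2.36 CPM in controls. Cyp4a32 had 0.800 to 1.80 CPM in Cdo1AKO, against 0.589 to 1.84 CPM in controls. It shares 32.6% of its 50-base words with Cyp4a10 and 24.1% with Cyp4a31, so its level is uncertain. Over all libraries Cyp4a10 and Cyp4a31 had 13 and 3 counts, against 127 for Cyp4a32.

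Cyp4f18, known from mouse leukocytes, followed the lymph node transcripts more than the genotype. It had 25.1, 4.44 and 23.3 CPM in Cdo1AKO 1 to 3, against 1.59, 23.5 and 14.4 CPM in control 1 to 3. The lowest libraries of both groups were those with few lymph node transcripts, Cdo1AKO 2 and control 1. Its log2 fold change was 0.42 ± 0.98 (SE) and 0.63 ± 0.28 once the lymph node transcripts were a term (adjusted p = 0.24 by edgeR), and it turned to -0.11 without control 1. Cyp4f18 also overlaps Zfp961 on the other strand, a gene with 1566 counts over all libraries, against 1728 for Cyp4f18.

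Cyp2s1, an enzyme of epithelia that dioxin induces, was low. It was higher in Cdo1AKO when libraries with and without lymph node transcripts were compared apart. It had 8.60, 0.901 and 7.30 CPM in Cdo1AKO 1 to 3, against 0.368, 3.21 and 1.88 CPM in control 1 to 3. The groups overlap as a whole, since Cdo1AKO 2 lay below controls 2 and 3. Among the 4 libraries with lymph node transcripts both Cdo1AKO values lay above both control values. Between the other 2 libraries Cdo1AKO 2 lay above control 1, at 14 against 6 counts. Lymph node content still differed among the 4, with a marker median of 98.6 CPM in control 2, against 51.6 and 54.6 CPM in Cdo1AKO 1 and 3. The log2 fold change of Cyp2s1, 1.62 ± 0.98 (SE), did not pass (adjusted p = 0.617 by edgeR). With the lymph node term it was 1.57 ± 0.31 and passed as higher (adjusted p = 0.0448 by edgeR), the only P450 gene called higher there, where 2.26% of all tested genes were called higher. Over all alternatives its adjusted p ranged from 0.0148 to 0.984. Of 6 markers of mammary epithelium only Epcam reached 1 CPM, with 2.15, 0 and 2.85 CPM in Cdo1AKO 1 to 3, against 0.245, 1.02 and 1.501 CPM in control 1 to 3. Epcam was thus highest in the same 2 libraries as Cyp2s1, and lowest in Cdo1AKO 2 and control 1, which had few lymph node transcripts. Krt5 and Krt14 of this list went the other way, with at most 0.10 and 0 CPM in Cdo1AKO, against 1.10 and 0.307 CPM in control 1. Krt8 had counts in Cdo1AKO 1 and 2 alone, Krt18 overlapped and Csn3 was at 0. The part of Epcam in the Cyp2s1 result was not tested.

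**Figure D4:**
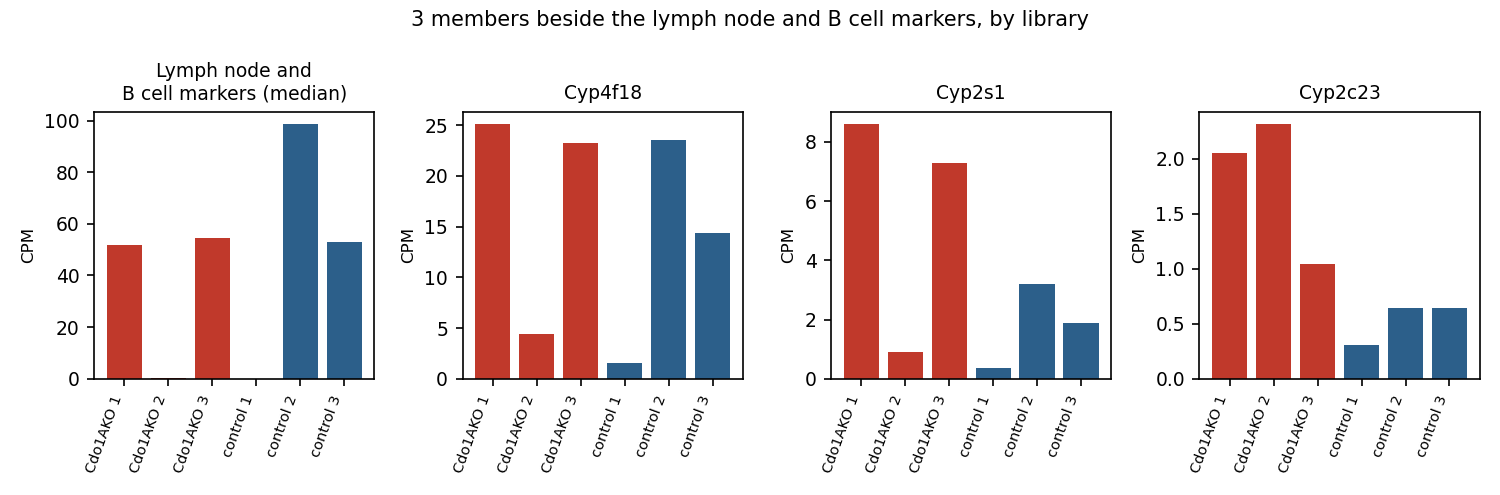
Level in CPM per library of the median lymph node and B cell marker and of Cyp4f18, Cyp2s1 and Cyp2c23, with the 3 Cdo1AKO libraries left of the 3 controls. Cyp4f18 and Cyp2s1 are lowest within each group in the library with few lymph node transcripts, and Cyp2c23 is above every control in all 3 Cdo1AKO libraries.

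Cyp2c23, which makes epoxides of arachidonic acid in rat kidney, was higher in every Cdo1AKO library, at a low level. Its mean was 1.80 CPM in Cdo1AKO and 0.531 CPM in controls. Cyp2c23 thus reached the limit of 1 CPM only through the group where it was high, and its place among the 18 genes is a description. It had 41, 36 and 19 counts in Cdo1AKO 1 to 3, against 5, 12 and 12 counts in control 1 to 3, which are 2.05, 2.32 and 1.04 CPM against 0.307, 0.642 and 0.643 CPM. Its log2 fold change was 1.74 ± 0.49 (SE), with unadjusted p = 0.0105 and adjusted p = 0.362 by edgeR. It did not pass in any alternative, with adjusted p from 0.0931 to 0.938. Of the 18 genes, 2 lay wholly below the controls (Cyp2e1 and Cyp2f2) and 2 wholly above (Cyp2c23 and Cyp4f16), against 10.1% and 9.08% of 15120 genes with a mean of at least 1 CPM. Among genes under that limit Cyp2c70 had 19, 9 and 23 counts in Cdo1AKO 1 to 3, against 0, 7 and 2 counts in control 1 to 3. It was not tested by edgeR because it did not pass the filter on low counts, and it was singled out after its values were seen.

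The remaining family 1 and 2 genes overlapped between the groups. Cyp2d22, a mouse relative of the human drug-oxidising enzyme CYP2D6, had 104, 69.8 and 100.4 CPM in Cdo1AKO 1 to 3, against 199, 81.6 and 138 CPM in control 1 to 3. Its log2 fold change of -0.61 ± 0.35 (SE) was the lowest after those of Cyp2f2 and Cyp2e1, and it was -0.27 without control 1 and -0.11 in the 4 libraries with lymph node transcripts. Its controls ranked as those of Cyp2e1, the summed adipocyte markers and Cdo1 did, with control 1 highest and control 2 lowest. Cyp1b1, an extrahepatic enzyme that oxidises oestradiol and aromatic hydrocarbons, had 32.7, 22.8 and 37.8 CPM in Cdo1AKO 1 to 3, against 51.5, 29.6 and 40.8 CPM in control 1 to 3, with a log2 fold change of -0.39 ± 0.27 (SE).

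The subfamily Cyp2j is known for epoxides of arachidonic acid. Cyp2j6 had 16.6, 34.4 and 15.97 CPM in Cdo1AKO 1 to 3, against 25.8, 19.9 and 21.1 CPM in control 1 to 3. Cdo1AKO 2 was its highest library, and its log2 fold change turned to -0.45 without that library. Cyp2j9 had 6.70 to 9.65 CPM in Cdo1AKO, against 8.18 to 11.3 CPM in controls. Cyp2u1, a fatty acid hydroxylase in human cells, had 4.78 to 10.7 CPM in Cdo1AKO, against 7.60 to 10.7 CPM in controls. Cyp2r1, which adds the first hydroxyl group in the activation of vitamin D, had 1.65, 2.51 and 1.37 CPM in Cdo1AKO 1 to 3, against 0.429, 1.55 and 1.29 CPM in control 1 to 3.

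Across the 18 genes the log2 fold change was negative in 11 and positive in 7, with a median of -0.09, beside a median of 0.06 over 15102 tested genes with a mean of at least 1 CPM. Without Cyp2e1 and Cyp2f2 the median was -0.03 and the range ran from -0.61 for Cyp2d22 to 1.74 for Cyp2c23. The mean of Cyp2c23 exceeded 1 CPM in Cdo1AKO samples only. Reads of Cyp2e1 made up 40.8%, 38.8% and 40.9% of the CPM assigned to all 75 genes in Cdo1AKO 1 to 3, against 84.6%, 61.8% and 79.5% in control 1 to 3, with no correction for length. The summed CPM of all 75 genes was 872, 929.5 and 842 in Cdo1AKO 1 to 3, against 4892, 1264 and 3045 in control 1 to 3. Without Cyp2e1 and Cyp2f2 the sums were 514, 567 and 494.5 in Cdo1AKO 1 to 3, against 677, 472 and 584 in control 1 to 3, and these overlap.

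**Figure D5:**
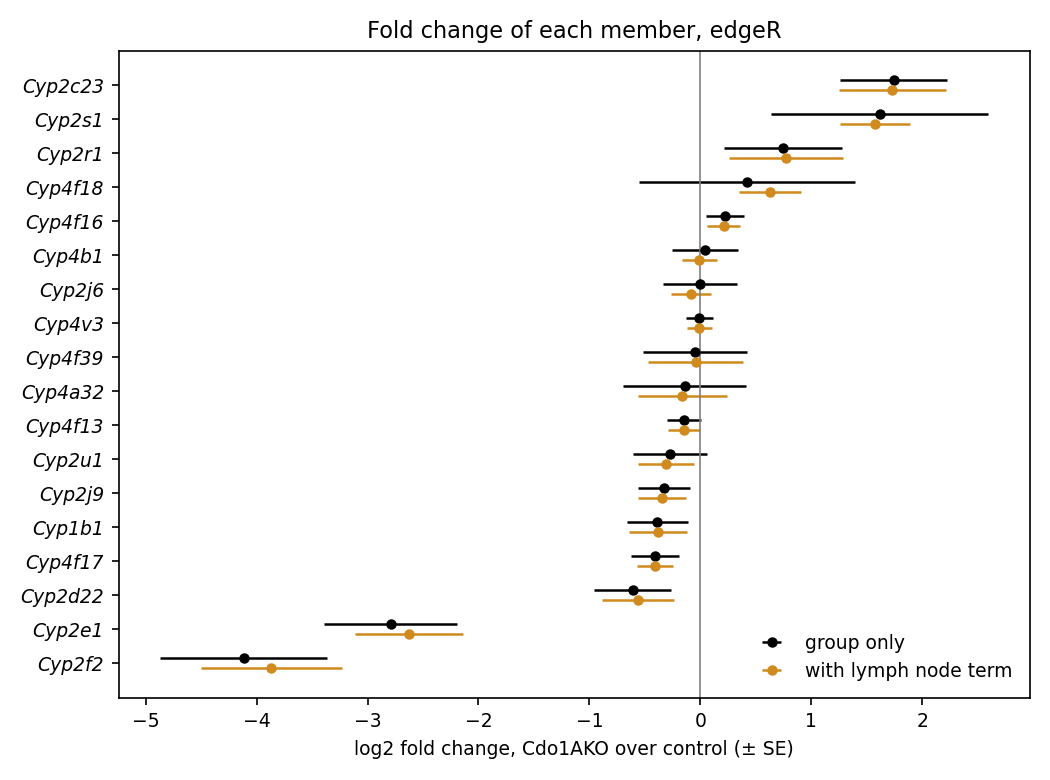
log2 fold change of Cdo1AKO over control with its standard error for the 18 P450 genes, by edgeR with genotype as the only term (black) and with a term for libraries that hold lymph node transcripts (orange). Cyp2f2 (-4.12) and Cyp2e1 (-2.79) stand apart at the low end, and Cyp2c23 (1.74) and Cyp2s1 (1.62) are at the high end.

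Genes that work with P450 enzymes were read in lists chosen with results of these samples known. Por, which encodes the oxidoreductase that passes electrons to all these enzymes, had 381, 458.5 and 333 CPM in Cdo1AKO 1 to 3, against 1139, 569.5 and 827 CPM in control 1 to 3. The groups did not overlap, and the log2 fold change of -1.11 ± 0.30 (SE) had adjusted p = 0.359 by edgeR, 0.0468 by DESeq2 and 0.042 with the lymph node term. Of genes with a mean of at least 1 CPM, 10.1% lay wholly below the controls. DESeq2 called 0.968% of genes lower and the lymph node term 1.87%. Of 8 genes for electron donors and haem, 0 passed the edgeR test and 2 had an unadjusted p under 0.05, both lower, against 5.71% of all tested genes lower. These were Por and Pgrmc1, a haem protein that binds P450 enzymes. Pgrmc1 had 102.5, 141.5 and 104 CPM in Cdo1AKO 1 to 3, against 199, 139.5 and 167 CPM in control 1 to 3, and overlapped.

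Of 16 receptors and factors known to control P450 genes, 12 were tested, 0 passed and 7 had an unadjusted p under 0.05 by edgeR, all of them lower, against 5.71% of all tested genes lower. The list was chosen with these results known, so this count is a description. The fatty acid receptor Ppara had 3.65, 3.28 and 5.32 CPM in Cdo1AKO 1 to 3, against 12.1, 12.6 and 14.9 CPM in control 1 to 3. The D-box factor Hlf had 19.6, 12.7 and 17.2 CPM in Cdo1AKO 1 to 3, against 41.6, 35.8 and 42.2 CPM in control 1 to 3. Tef, its relative, had 223, 197 and 206 CPM in Cdo1AKO 1 to 3, against 450.5, 344 and 409 CPM in control 1 to 3. These 3 passed with the lymph node term (adjusted p = 0.0222, 0.0231 and 0.0356 by edgeR), which called 1.87% of tested genes lower. They also passed by DESeq2 (adjusted p = 3.47e-05, 0.000436 and 0.00152), which called 0.968% of genes lower. The other 4 did not pass with the lymph node term or by DESeq2. They were Arnt, the partner of the aryl hydrocarbon receptor (log2 fold change -0.65 ± 0.15), and Dbp, another D-box factor (-0.65 ± 0.25). Also among them were the glucocorticoid receptor gene Nr3c1 (-0.34 ± 0.12) and the stress response factor Nfe2l2 (-0.35 ± 0.14). All 7 genes lay wholly below the controls, as did 10.1% of genes with a mean of at least 1 CPM. The receptors best known for inducing liver P450 genes, Nr1i2 and Nr1i3, were at or below 0.193 CPM in every library.

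Among 4 epoxide hydrolases, which open epoxides such as those that P450 enzymes make, Ephx2 was lower and Ephx1 higher in every Cdo1AKO library. Ephx2, the soluble enzyme that acts on fatty acid epoxides, had 339, 261 and 339.6 CPM in Cdo1AKO 1 to 3, against 1143, 620.2 and 865.6 CPM in control 1 to 3. The log2 fold change of Ephx2 was -1.48 ± 0.28 (SE). Its adjusted p was 0.267 by edgeR, 0.000466 by DESeq2 and 0.0373 by edgeR with the lymph node term. Ephx1, the microsomal enzyme that acts on epoxides of foreign compounds, had 111, 115 and 116 CPM in Cdo1AKO 1 to 3, against 70.4, 66.1 and 69.0 CPM in control 1 to 3. The log2 fold change of Ephx1 was 0.74 ± 0.12 (SE). Its adjusted p was 0.23 by edgeR, 0.00188 by DESeq2 and 0.028 by edgeR with the lymph node term. Groups that do not overlap were seen in 10.1% of all genes with a mean of at least 1 CPM on the lower side and in 9.08% on the higher side. Ephx3 overlapped, with 0.85 to 3.47 CPM in Cdo1AKO, against 1.18 to 2.58 CPM in controls, and Ephx4 lay below 1 CPM in every library. Among 9 genes of this list, 6 were tested, 0 passed and Ephx2 and Ephx1 were those with an unadjusted p under 0.05 by edgeR. Of all tested genes, 5.71% were lower and 4.66% higher at that unadjusted p. With the lymph node term 1.87% of all tested genes were called lower and 2.26% higher. DESeq2 called 177 genes lower and 94 higher out of 18284.

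Other P450 genes, which the symbol rule left out, gave no call. This list held 24 genes, among them Cyp4a12a, Cyp4a12b and Cyp2ab1 of families 2 and 4, and 23 were found in the table. Of these 11 were tested, 0 passed and 1 had an unadjusted p under 0.05 by edgeR and was higher, against 4.66% of all tested genes. That gene was Tbxas1, the thromboxane synthase of platelets and macrophages, with 5.95, 11.7 and 5.98 CPM in Cdo1AKO 1 to 3, against 4.05, 4.71 and 4.56 CPM in control 1 to 3. Its log2 fold change was 0.83 ± 0.33 (SE). The summed level of 6 macrophage markers was 643, 559.6 and 668.5 CPM in Cdo1AKO 1 to 3, against 371, 645 and 521 CPM in control 1 to 3, with Lyz2 the most abundant of them. Adgre1, Cd68 and Csf1r of this list were higher in every Cdo1AKO library than in any control, with unadjusted p = 0.0433, 0.0145 and 0.0158 by edgeR, and Cd14 was lower in every one, with unadjusted p = 0.00557. Of all genes with a mean of at least 1 CPM, 9.08% lay wholly above the controls and 10.1% wholly below. At an unadjusted p under 0.05 by edgeR, 4.66% of all tested genes were higher and 5.71% lower. The median of the 6 markers was 36.9, 57.4 and 39.1 CPM in Cdo1AKO 1 to 3, against 46.4, 27.4 and 36.3 CPM in control 1 to 3, so it was highest in Cdo1AKO 2, as Tbxas1 was. Their part in the Tbxas1 difference was not tested. Cyp27a1, the sterol 27-hydroxylase and the most abundant of this list in CPM, had 86.2, 47.7 and 84.1 CPM in Cdo1AKO 1 to 3, against 63.3, 65.2 and 58.2 CPM in control 1 to 3, and overlapped.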

How the data were processed

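Bulk RNA sequencing counts were compared between 3 Cdo1AKO and 3 control samples, grouped by title; WT columns were matched to control titles by genotype and number. The authors deposited raw counts per gene, per the file headers. FPKM values deposited by the authors, per the file headers, were not used. Their comparison (log2 fold changes, p-values, adjusted p-values) is quoted as the authors' deposited table. Per the submitters' processing notes, which give no roles, the build was mm10 and the tools were DESeq2 1.20.0, HISAT2 2.0.5 and featureCounts 1.5.0-p3. RNA was isolated with TRIzol and libraries made with a NEBNext Ultra kit, per the labels' protocols.

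Of 54532 genes, 16623 passed filterByExpr and were tested with edgeR 4.0.16 (quasi-likelihood, TMM, group only) in R 4.3.3, with Benjamini-Hochberg adjustment over all of them. CPM uses TMM-scaled library sizes. Alternatives were DESeq2 1.42.0, voom of limma 3.58.1, other scaling and filters, a lymph node term (libraries with a median above 5 CPM over 11 markers), a replicate block and each library left out. Permutation tests used SciPy 1.17.1. Shared 50-base words came from GENCODE transcripts. The edgeR test was tested on simulated counts, where calls of changed genes were required only at a smaller spread than in these samples. The named genes are those with a mean of at least 1 CPM, and partner genes with an unadjusted p under 0.05 or the highest level of their list. Genes named outside that rule, to describe the silent subfamilies, the Cyp2f2 cluster and the partner lists (Cyp1a1, Cyp1a2, Cyp2a12, Cyp2t4, Cyp2c70, Nr1i2, Nr1i3, Ephx3, Ephx4), were chosen after their values were seen. The genes, lists and tests were chosen with earlier results of these data known. Same-numbered samples share only a number. No protein sequences were used here.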

Additional observations from a re-analysis of the deposited data

How the results depend on the processing

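No gene passed the edgeR test with group only (1724 at unadjusted p under 0.05), and 0 passed with other scaling, other filters, robust estimation, limma-voom, a replicate block or any 1 library left out. DESeq2 called 271 genes and 2 P450 genes, the lymph node term 686 and 3, and the 4 libraries with lymph node transcripts 2617 and 3. In those fits the log2 fold change was -2.79, -2.63 and -2.20 for Cyp2e1 and -4.13, -3.87 and -3.20 for Cyp2f2, all past the threshold; Cyp2s1 passed in the last 2, with 1.57 and 1.64. The last fit rests on Cdo1AKO 1 and 3, which were unusually alike. With the lymph node term they are the only Cdo1AKO libraries of the same class, so its calls share this limit. With each library left out, Cyp2e1 ranged from -3.22 to -2.19, Cyp2f2 from -4.59 to -3.35, and the median over the 18 genes from -0.276 to 0.0214. Their levels relative to the 16 others ranged from -3.21 to -1.84 and from -4.31 to -2.71, where no test could reach 0.05.

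The same-numbered samples did not deviate together (correlations of -0.66, -0.66 and 0.42). With the replicate block the log2 fold change was -2.51 for Cyp2e1 and -3.73 for Cyp2f2. Only genes whose log2 fold change was smaller than its standard error changed sign, and the cause was not tested. Most of them lay near 0, but Cyp4f18 was at 0.42 ± 0.98 (SE). Cyp2j6 (0.00) was at -0.10 with limma-voom, -0.00092 and -0.00265 with other filters, -0.0903 with the block, -0.0826 with the lymph node term, -0.34 in the 4 libraries, and -0.45 to 0.19 with libraries left out. Cyp4b1 was at -0.0115 with the block, -0.00862 with the lymph node term, -0.17 in the 4 libraries, and -0.32 to 0.21 with libraries left out. Cyp4f39 was at 0.0536 with library totals alone, 0.0562 with limma-voom, 0.0464 with the block, and -0.30 to 0.48 with libraries left out. Cyp4v3 was at 0.0739 with library totals alone and -0.0486 to 0.0178 with libraries left out. Cyp4a32 ranged from -0.59 to 0.21 and Cyp4f18 from -0.11 to 1.13 with libraries left out. At the low counts of Cyp2c23, Cyp2r1, Cyp4f39 and Cyp4a32, depth limits the precision.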
